A study of Mus musculus with 12 samples.

Results

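The genes described here are the enzymes and mitochondrial carriers with which the liver turns ammonia into urea, together with the enzymes that free ammonia from glutamine and glutamate. They were chosen by name, with earlier results of these data known. They are Cps1, Otc, Ass1, Asl, Arg1, Nags, Slc25a15, Slc25a13, Gls2 and Glud1, which are 10 of the 55414 genes in the count table. All 10 were found in the table under a single gene each and passed the filter on low counts, which kept 13857 genes. RNAseq was made from the livers of 12 female C57BL/6J mice in 4 groups of 3, and every mouse received an i.p. injection at the start and another 6 h later. The NaCl/PBS mice received 0.9% NaCl and then PBS, and the NaCl/DEX mice received the same NaCl and then 10 mg/kg dexamethasone (DEX, a synthetic glucocorticoid that binds the glucocorticoid receptor, GR). The FeSO4/PBS mice received 300 mg/kg FeSO4 and then PBS, and the FeSO4/DEX mice received this FeSO4 dose and then 10 mg/kg DEX. The mice were killed at 8 h, which was 2 h into the second treatment, so that the FeSO4 effect was read at 8 h and the DEX effect at 2 h. The mice carried no transgene or deletion, and this dose of FeSO4 is lethal in the model, so that the FeSO4 groups are severely ill mice.

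Ammonia from the gut and from amino acids is toxic, and periportal hepatocytes remove it through the urea cycle. In the mitochondria, Cps1 joins ammonia and bicarbonate to carbamoyl phosphate, a step that runs only with N-acetylglutamate, which Nags makes. Otc adds carbamoyl phosphate to ornithine to give citrulline, and Slc25a15 exchanges ornithine and citrulline across the inner mitochondrial membrane. In the cytosol, Ass1 joins citrulline and aspartate, which leaves the mitochondria through the carrier Slc25a13, Asl splits the product into arginine and fumarate, and Arg1 splits arginine into urea and ornithine. Gls2 is the liver glutaminase and Glud1 the glutamate dehydrogenase, both of which release ammonia in the mitochondria. Pericentral hepatocytes catch the ammonia that passes by and bind it into glutamine with Glul, glutamine synthetase. Glucocorticoids and glucagon are textbook inducers of urea cycle genes, which serves nitrogen disposal when protein is broken down.

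The livers had 16335651 to 23827340 reads on genes (median 19602514), of which the 10 genes took 0.888% to 1.47%. Values are normalized counts, that is reads scaled by the TMM factor of each library to the mean library size, and a log2 fold change (LFC) is the fitted difference on the log2 scale. A gene was called changed where edgeR's quasi-likelihood test, with Benjamini-Hochberg adjustment over all 13857 genes, gave an adjusted p of no more than 0.05. An exact permutation test of 3 mice against 3 cannot give a two-sided p below 0.1, so that the test across genes was used throughout. The TMM factors were 1.14 to 1.16 in NaCl/PBS mice and 0.87 to 1.06 in the others. With scaling by library size alone, the median LFC of all genes was -0.34 after FeSO4 and -0.18 after DEX, against -0.02 for both with TMM, and all changes below are relative to the TMM scale. Of the genes called, 49.9% were higher after FeSO4 and 47.6% after DEX with TMM, against 28.2% and 25.8% with library size alone. In bulk liver, fewer cells of a type and less RNA per cell cannot be told apart.

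RefSeq promoter windows of 300 bases, 250 before and 50 after a transcription start (GRCm38.p6), were on hand for Otc, Ass1, Nags, Slc25a15 (with 2 starts), Slc25a13 and Glud1, and each was placed on GRCm39 by its only exact match. Cps1, Asl, Arg1 and Gls2 had no entry. The 7 windows were searched on both strands for a glucocorticoid response element (GNACA, any 3 bases, TGTNC), a C/EBP motif (TTGCNCAA), a full CRE (TGACGTCA), the short CRE core TGACG, an antioxidant response element (TGACNNNGC), an E-box (CACGTG) and a TATA box (TATAAA). Of these, the full CRE contains the short core. The E-box was found in 3 of the 7 windows, of Ass1, Slc25a13 and the second start of Slc25a15, and in 7.15% of the 32851 windows of the table. These 3 windows had a G and C content of 74.0% (Ass1), 65.0% (Slc25a13) and 79.0% (Slc25a15). Member windows without an E-box had 44.3% (Otc) to 81.0% (Glud1). The share over all windows was not matched for this content. Of the 250 bases before the starts with an E-box, 128 (Ass1), 121 (Slc25a13) and 250 (Slc25a15) lie in annotated exons or untranslated regions. The E-boxes of Ass1 and Slc25a15 fall within such sequence, and that of Slc25a13 straddles its edge. The short CRE core was found in 2 windows, of Nags and Slc25a13, and in 20.81% of all windows. No window held the glucocorticoid response element, the C/EBP motif, the full CRE, the antioxidant response element or the TATA box, which 0.47%, 2.94%, 1.79%, 12.39% and 13.62% of all windows held. The windows of Ass1 and Slc25a15 lie wholly inside the annotated genes, so sequence before the first annotated base of these genes was not searched.

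The 250 bases before the start of Nags are shown because Nags fell after both treatments, and the stretch before the first start of Slc25a15 because Slc25a15 responded most to DEX. Neither stretch holds any of the motifs, so all letters are in lower case. The Nags stretch lies at chr11:102036089-102036338 on the plus strand, and that of Slc25a15 at chr8:22888643-22888763 on the minus strand, from 126 to 6 bases before the start (both GRCm39). The Slc25a15 stretch is inside the annotated gene (chr8:22865516-22889423).
Nags: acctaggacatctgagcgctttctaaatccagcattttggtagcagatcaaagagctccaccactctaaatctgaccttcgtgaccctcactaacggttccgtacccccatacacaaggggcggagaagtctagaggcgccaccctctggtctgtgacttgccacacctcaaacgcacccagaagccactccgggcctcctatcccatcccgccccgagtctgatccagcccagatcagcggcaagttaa
Slc25a15: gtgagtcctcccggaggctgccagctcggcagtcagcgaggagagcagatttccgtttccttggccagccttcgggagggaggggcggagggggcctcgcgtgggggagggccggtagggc

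The E-box sites follow as the motif in capitals with 12 bases on each side, 5′ to 3′ on the strand of the gene. They lie at chr2:31360234-31360263 on the plus strand (Ass1), at chr8:22888353-22888382 on the minus strand (Slc25a15, second start) and at chr6:6217281-6217310 on the minus strand (Slc25a13), all on GRCm39. A match describes these letters only and was not tested as a binding site.
Ass1: cgcgcccgtcccCACGTGtcccaggttcct
Slc25a15: cgccctgccgcaCACGTGccgcggctccgg
Slc25a13: cacagtctgagtCACGTGtcctggcccctc

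To see how abundant the transcripts are, levels were compared per length, as TMM-scaled reads per kb of exon, divided by the library size in units of 1e+06 reads. In NaCl/PBS livers, Cps1 was highest with 633 ± 101 (SD, n = 3) and ranked 47th of the 13857 genes tested. Arg1 followed with 410 ± 49.3 and Ass1 with 370 ± 93.8, and the mice of these genes overlapped. Glud1 had 130 ± 7.94, Otc 96.6 ± 8.98, Asl 71.8 ± 3.6 and Gls2 65.1 ± 15.7, with the mice of Asl and Gls2 overlapping. The carriers were lower, with 31.0 ± 4.04 for Slc25a15 and 24.4 ± 1.51 for Slc25a13, and Nags was lowest with 19.7 ± 1.67. On this scale Nags stayed the lowest member in every group, while Slc25a15 reached 104 ± 21.0 in NaCl/DEX livers, where its mice overlapped those of Asl and Otc. In both FeSO4 groups the mice of Arg1, Cps1 and Ass1 overlapped their neighbours in this order, so that Cps1 no longer stood above the others.

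**Figure D1:**
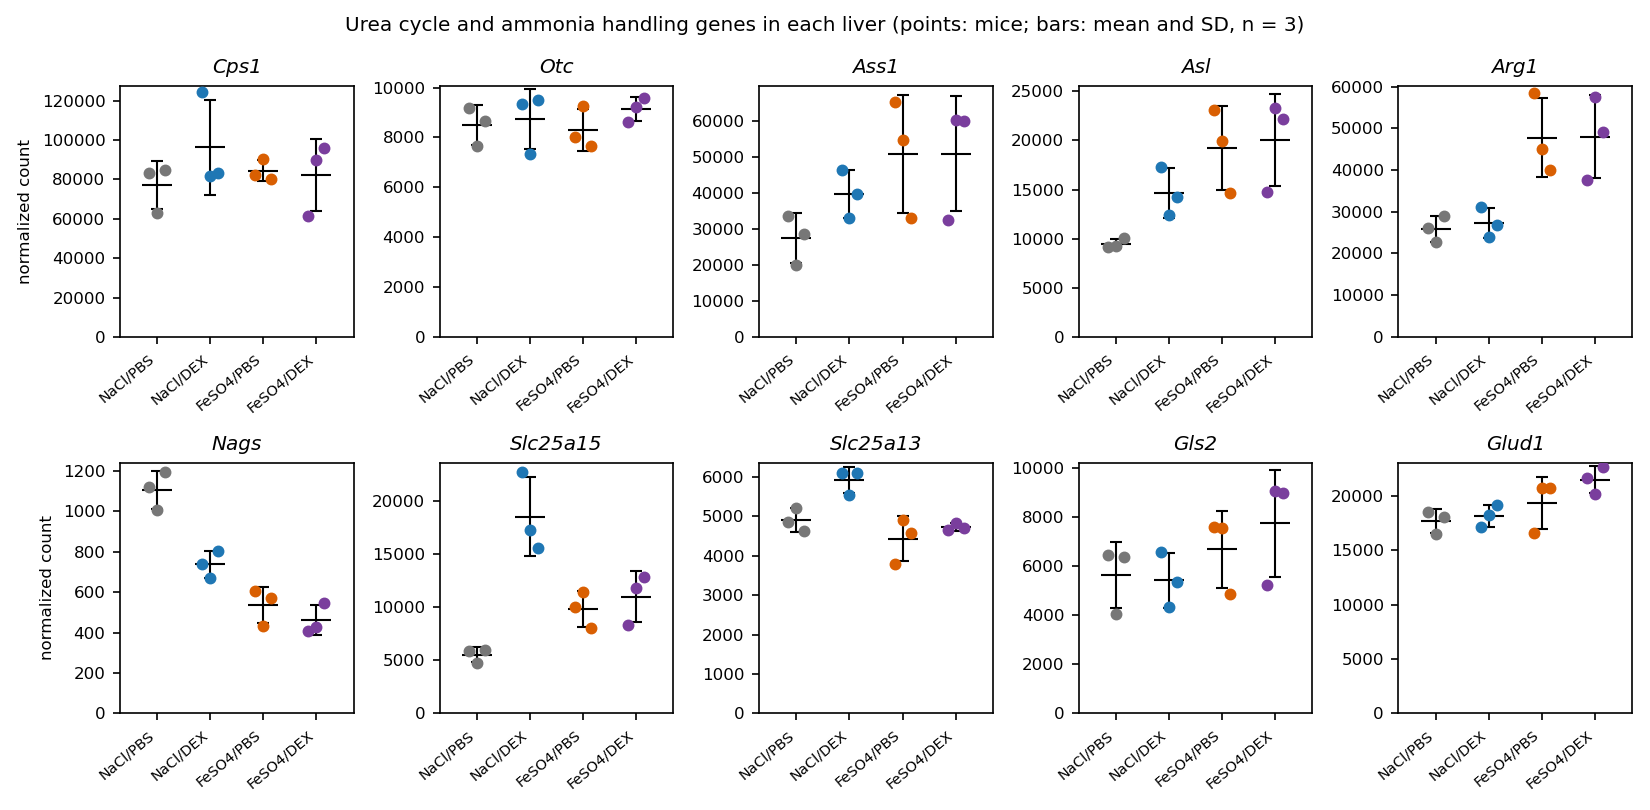
Normalized count (vertical axis, starting at 0) of each gene in each liver, with groups along the horizontal axis; points are single mice and bars the mean and SD of 3. Slc25a15 is highest in NaCl/DEX mice, at 15558 to 22690, Nags falls from 1006 to 1193 in NaCl/PBS mice to 409 to 547 in FeSO4/DEX mice, and Otc stays between 7353 and 9567 throughout.

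To ask what acute iron overload does to these genes, FeSO4/PBS mice were compared with NaCl/PBS mice. Of the 10 genes, 4 were higher (Asl, Ass1, Arg1 and Slc25a15) and 1 was lower (Nags), where 27.2% of all tested genes were higher and 27.3% were lower. The genes called higher were the cytosolic enzymes and the ornithine carrier, and a difference between these and the mitochondrial enzymes Cps1 and Otc, which were not called, was not tested. The median LFC of the 10 genes was 0.19, against -0.02 over all genes tested.

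Asl (chr5:130040099-130058088), the enzyme that yields arginine, had normalized counts of 9171, 9224 and 10018 without treatment (NaCl/PBS) and of 23065, 19889 and 14653 after iron. Every iron-treated mouse was thus above every control, as in 29.0% of all tested genes, while in 31.0% every one was below. Asl was 2.03-fold higher, with an LFC of 1.02 (SE 0.19, adjusted p = 5.6e-04). Arg1 (chr10:24791118-24803817), which cleaves arginine to urea, had 26202, 22700 and 28927 in the NaCl/PBS mice against 58344, 45081 and 39890 after FeSO4. Here too the groups did not overlap, with an LFC of 0.88 (SE 0.18, adjusted p = 9.4e-04). Ass1 (chr2:31352181-31410862), which binds citrulline to aspartate, had 33596, 19883 and 28637 in NaCl/PBS against 65058, 54539 and 32882 in FeSO4/PBS livers. The third FeSO4/PBS mouse lay within the range of the NaCl/PBS mice, and the LFC of 0.89 had the widest error of the called genes (SE 0.28, adjusted p = 0.014). The call of Ass1 was lost without FeSO4/PBS mouse 1 (adjusted p = 0.0549), without NaCl/PBS mouse 2 (adjusted p = 0.0604) and with scaling by library size alone (adjusted p = 0.0761).

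Slc25a15 (chr8:22865516-22889423), the ornithine and citrulline carrier, had 5877, 4696 and 5999 normalized counts in the NaCl/PBS mice and 9997, 11380 and 8063 after FeSO4. All FeSO4/PBS mice lay above, and the LFC was 0.83 (SE 0.19, adjusted p = 0.0022). Nags (chr11:102036339-102040303), the source of the activator of Cps1, went the other way, with 1122, 1006 and 1193 in NaCl/PBS against 605, 433 and 570 in FeSO4/PBS livers. All treated mice lay below, and Nags was 2.07-fold lower with an LFC of -1.05 (SE 0.15, adjusted p = 4.2e-05).

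The other 5 genes did not pass the test. Cps1 (chr1:67161988-67270418) ranged from 62867 to 84945 in NaCl/PBS mice and from 80361 to 90534 after FeSO4. The LFC was 0.13, with a 95% interval from -0.29 to 0.56. Otc (chrX:10118503-10187265) had an LFC of -0.03 with an interval from -0.31 to 0.24, and Slc25a13 (chr6:6040252-6217294) one of -0.14 from -0.38 to 0.09. For Gls2 (chr10:128030316-128045873) the LFC was 0.24, from -0.28 to 0.77, and for Glud1 (chr14:34032583-34067642) 0.13, from -0.12 to 0.38. With scaling by library size alone the LFC of Cps1, Gls2 and Glud1 turned to -0.19, -0.08 and -0.19, and Otc (LFC -0.35, adjusted p = 0.0234) and Slc25a13 (LFC -0.46, adjusted p = 0.00351) were called lower, whereas Asl, Arg1, Slc25a15 and Nags kept their calls.

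**Figure D2:**
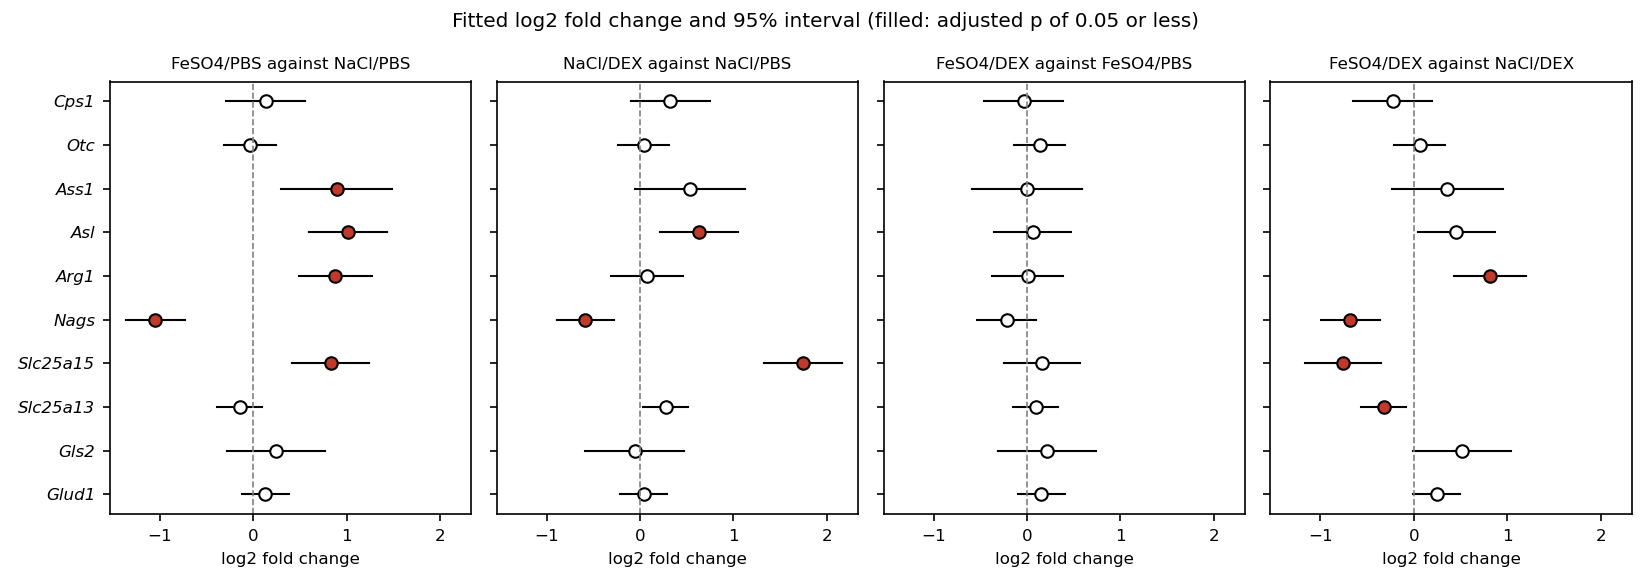
Fitted LFC (horizontal axis, log2 scale) of each gene in the 4 comparisons named above the panels, with bars for the 95% interval and filled points for an adjusted p of 0.05 or less. FeSO4 raised 4 genes and lowered Nags, DEX raised Slc25a15 by 1.74 and Asl by 0.63, and DEX after FeSO4 left all 10 intervals across 0.

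To ask how GR activation acts on the pathway without iron, NaCl/DEX mice were compared with NaCl/PBS mice. After 2 h of DEX, 2 of the 10 genes were higher (Slc25a15 and Asl) and 1 was lower (Nags), where 6.5% of all tested genes were higher and 7.15% were lower. The mitochondrial ornithine carrier was thus the member with the strongest response to the glucocorticoid. The median LFC of the 10 genes was 0.17, against -0.02 over all genes tested. Every NaCl/DEX mouse lay above every NaCl/PBS mouse in 17.6% of all tested genes, and below in 20.3%.

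Slc25a15 rose from 5877, 4696 and 5999 normalized counts to 22690, 17231 and 15558. The lowest NaCl/DEX mouse had more than any mouse of the other 3 groups. Slc25a15 was 3.35-fold higher, with an LFC of 1.74 (SE 0.19, adjusted p = 4.5e-05). Asl had 17313, 12368 and 14258 in the NaCl/DEX mice, all above the NaCl/PBS mice, with an LFC of 0.63 (SE 0.19, adjusted p = 0.045). Nags had 741, 669 and 803, all below the NaCl/PBS mice, with an LFC of -0.59 (SE 0.14, adjusted p = 0.014). Both of these calls were near the threshold: that of Asl was lost in 6 of the 12 fits that left out 1 mouse (adjusted p of up to 0.169, without NaCl/DEX mouse 1) and with library size alone (LFC 0.47, adjusted p = 0.0785) and that of Nags in 3 of the 12 (without NaCl/DEX mouse 2 or NaCl/PBS mouse 1 or 3, adjusted p of up to 0.0706).

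Slc25a13, the aspartate carrier, had 6101, 5546 and 6110 in the NaCl/DEX mice against 4854, 5217 and 4616 in the NaCl/PBS mice. Its groups did not overlap either, but the LFC of 0.27 did not pass the test (adjusted p = 0.13), except with DESeq2 (adjusted p = 0.0458) and without FeSO4/PBS mouse 1 (adjusted p = 0.0376). Cps1 had 124309, 81699 and 83091 in the NaCl/DEX mice, where mouse 1 alone lay above the NaCl/PBS mice, and its LFC of 0.32 had an interval from -0.10 to 0.75. Ass1 had 46214, 32974 and 39639, with an LFC of 0.53 from -0.06 to 1.12 that passed the test with no filter on low counts (adjusted p = 0.0034) and in no other fit tried. For Otc, Arg1, Gls2 and Glud1 the LFCs lay between -0.06 and 0.07.

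To ask whether DEX still acts on the pathway after iron, FeSO4/DEX mice were compared with FeSO4/PBS mice. Of the 10 genes, 0 were called by edgeR, as were 0.0% of all tested genes. Of the 10, 0 had an unadjusted p below 0.05 and DESeq2 called 0. Over all genes, 900 had such a p in edgeR, and DESeq2 called 9 genes. Slc25a15 had 8276, 11794 and 12818 normalized counts in FeSO4/DEX mice and 9997, 11380 and 8063 in FeSO4/PBS mice. The groups overlapped widely, and the LFC was 0.16 with an interval from -0.25 to 0.57. For Nags, with 409, 428 and 547 in the FeSO4/DEX mice, the LFC was -0.22 with an interval from -0.53 to 0.10. Asl had 14719, 23332 and 22173, and its LFC of 0.06 had an interval from -0.35 to 0.48. The LFCs of all 10 genes lay between -0.22 and 0.21, with a median of 0.08. The intervals of several genes are wide, reaching from -0.59 to 0.59 for Ass1, so that changes within them were not detectable with 3 mice a group.

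The difference between the DEX effects of FeSO4 and NaCl mice was tested as an interaction. Slc25a15 was the only one of the 10 genes that passed this test, with a difference of -1.58 on the log2 scale (SE 0.27, adjusted p = 0.0032, interval from -2.16 to -1.01). Among all genes the difference was called higher in 2.99% and lower in 3.2%. The call for Slc25a15 held in all 12 fits that left out 1 mouse, with differences from -1.74 to -1.41. The differences of Asl (-0.56, from -1.15 to 0.02), Ass1 (-0.53, from -1.37 to 0.30), Cps1 (-0.36, from -0.96 to 0.24) and Nags (0.37, from -0.07 to 0.81) did not pass it, and a DEX effect on these genes was thus not shown to differ between FeSO4 and NaCl mice.

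FeSO4 was also compared within DEX-treated mice, as FeSO4/DEX against NaCl/DEX. Of the 10 genes, 1 was higher (Arg1) and 3 were lower (Slc25a15, Nags and Slc25a13), where 22.4% of all tested genes were higher and 20.9% were lower. Arg1 had 37561, 57383 and 49082 in the FeSO4/DEX mice and 31138, 24056 and 26762 in the NaCl/DEX mice. All FeSO4/DEX mice lay above, as in 28.8% of all tested genes (all below in 27.1%), with an LFC of 0.81 (SE 0.18, adjusted p = 0.0023). Slc25a15 was higher after FeSO4 in mice without DEX but lower in mice with DEX, with an LFC of -0.75 (SE 0.19, adjusted p = 0.0054) and no overlap. Nags was lower in both settings, here with an LFC of -0.68 (SE 0.15, adjusted p = 0.0020) and no overlap. Slc25a13 had 4659, 4831 and 4698 in the FeSO4/DEX mice, all below the NaCl/DEX mice, with an LFC of -0.32 (SE 0.11, adjusted p = 0.030). That call was lost without FeSO4/DEX mouse 1 or 3 or NaCl/DEX mouse 1 or 3 (adjusted p of up to 0.0849) and with no filter on low counts (adjusted p = 0.0625). Asl (LFC 0.45, adjusted p = 0.071) and Gls2 (LFC 0.52, adjusted p = 0.10) were not called, but both passed with no filter on low counts (adjusted p = 0.014 and 0.0035) and without FeSO4/DEX mouse 1 (adjusted p = 0.0144 and 0.0259), the mouse with the least Asl and Gls2 of its group. Asl also passed without NaCl/DEX mouse 1 (adjusted p = 0.0452).

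Across the 4 groups, Nags had the order FeSO4/DEX, FeSO4/PBS, NaCl/DEX and NaCl/PBS from lowest to highest, and only the first pair of neighbours overlapped. For Slc25a15 the order was NaCl/PBS, FeSO4/PBS, FeSO4/DEX and NaCl/DEX, with an overlap of FeSO4/PBS and FeSO4/DEX only. Arg1 was split by the first injection, with the NaCl groups overlapping below and the FeSO4 groups overlapping above. For Cps1, Otc, Ass1, Gls2 and Glud1 every pair of neighbours in the order overlapped.

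Mice of a group also differed from each other in a shared way. The log2 level of each gene was set against the mean of the mouse's own group, and Pearson's r of these deviations over the 12 livers ranged from -0.50 to 0.97 over the 45 pairs of genes, with a median of 0.42. Within Cps1, Ass1, Asl, Arg1, Slc25a15 and Gls2, which were picked after their values had been seen, r ranged from 0.71 to 0.97 over 15 pairs. These r are a description, since the genes of a liver share its library and its scaling. All 6 lay below the mean of their group in NaCl/PBS mouse 2, NaCl/DEX mouse 2, FeSO4/PBS mouse 3 and FeSO4/DEX mouse 1, and all 6 lay above it in NaCl/PBS mouse 3, NaCl/DEX mouse 1 and FeSO4/DEX mice 2 and 3. In FeSO4/DEX mouse 1, Ass1 was 0.59 and Gls2 0.52 below the group mean on the log2 scale, and the mean of 9 periportal markers was 0.36 below. In FeSO4/PBS mouse 3, Ass1 was 0.57 below, with the periportal markers 0.11 below, while in NaCl/DEX mouse 1 the members were high and the periportal markers 0.15 below. Slc25a13 and Glud1 varied least, with extremes of -0.21 and 0.16 for Slc25a13 and of -0.21 and 0.11 for Glud1. The part of lobular position in this spread was not tested.

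**Figure D3:**
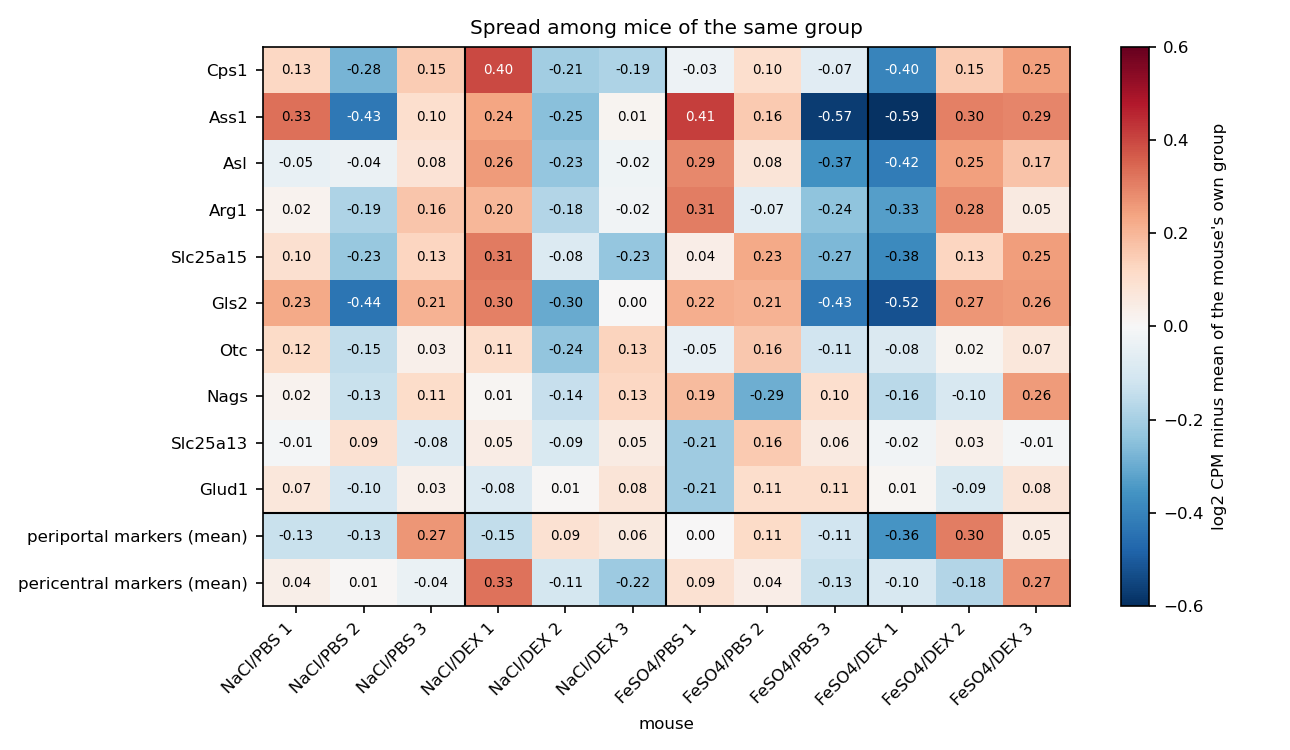
Level of each gene in each mouse (log2 CPM) minus the mean of the mouse's own group, as colour and number, with genes as rows and the 12 mice as columns; the bottom rows give the mean over 9 periportal and 10 pericentral marker genes. In FeSO4/DEX mouse 1 and FeSO4/PBS mouse 3 the rows from Cps1 to Gls2 are below 0, with Ass1 at -0.59 and -0.57.

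Genes that feed the cycle or share its substrates were then examined in 7 lists. For comparison with the counts of each list, 27.2% of all tested genes were higher and 27.3% were lower after FeSO4. After DEX in NaCl mice these shares were 6.5% and 7.15%. The counts of the lists were not tested against these shares. Of 7 enzymes that supply bicarbonate and turn fumarate back into aspartate, 5 were higher and 1 was lower after FeSO4. Got1, the cytosolic transaminase that makes aspartate, rose from 3968 ± 1695 (SD, n = 3) to 19351 ± 2121 normalized counts, an LFC of 2.29 (SE 0.26, adjusted p = 6.0e-06). Fh1, the fumarase, rose by 1.35 (SE 0.20, adjusted p = 8.5e-05) on the log2 scale. Car5a, the mitochondrial carbonic anhydrase that provides bicarbonate to Cps1, fell from 1483 ± 171 to 372 ± 59.9, an LFC of -1.99 (SE 0.13, adjusted p = 6.0e-08). Its level was also low in FeSO4/DEX mice, at 427 ± 10.4, while NaCl/DEX mice had 1682 ± 87.7. Iron thus lowered both Nags and Car5a, which provide the activator and a substrate of Cps1, while Cps1 itself was not called. After DEX in NaCl mice, 1 of the 7 was higher, which was Got1 with an LFC of 1.34 (SE 0.25, adjusted p = 0.0024).

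Of 3 genes of glutamine synthesis and ammonia uptake, 1 was higher and 1 was lower after FeSO4. Glul rose from 19519 ± 2768 to 29443 ± 4048 normalized counts after FeSO4 (LFC 0.59, SE 0.15, adjusted p = 0.0045) and to 27485 ± 3134 after DEX (LFC 0.49, SE 0.15, adjusted p = 0.045). With scaling by library size alone neither call of Glul was kept (LFC 0.27 and 0.34), and the call after DEX was also lost without NaCl/DEX mouse 1 or 2 or NaCl/PBS mouse 1 or 3 (adjusted p of up to 0.164). Slc1a2, a glutamate transporter of pericentral hepatocytes, fell by 0.88 (SE 0.14, adjusted p = 1.5e-04) on the log2 scale after FeSO4. The ammonia channel Rhbg was not called, with 15 to 69 reads per liver.

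Of 7 genes for glutamine and glutamate transport, 3 were higher after FeSO4 and 2 after DEX, and 0 were lower. The glutamine transporter Slc38a2 rose from 2917 ± 759 normalized counts to 17631 ± 2208 after FeSO4 (LFC 2.60, SE 0.17, adjusted p = 6.9e-08) and to 11402 ± 198 after DEX (LFC 1.97, SE 0.17, adjusted p = 5.2e-06). The mitochondrial glutamate carrier Slc25a22 rose after FeSO4 from 3530 ± 490 to 12876 ± 2702 (LFC 1.87, SE 0.19, adjusted p = 2.1e-06) and was not called after DEX. Slc25a18, the other glutamate carrier, had 0 reads in all 3 NaCl/PBS mice, 3 to 7 in NaCl/DEX mice and 17 to 25 in FeSO4/PBS mice, and was called in both comparisons from these few reads. Its call after DEX was lost without NaCl/DEX mouse 1 (adjusted p = 0.0606) or NaCl/PBS mouse 1 (adjusted p = 0.0547).

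Of 6 tested genes with other roles in ornithine and arginine use, 3 were higher after FeSO4 and 1 after DEX, and 0 were lower. Odc1, which takes ornithine into polyamines, rose from 864 ± 170 to 1614 ± 119 after FeSO4 (LFC 0.90, SE 0.14, adjusted p = 8.5e-05) and to 1483 ± 134 after DEX (LFC 0.78, SE 0.14, adjusted p = 0.0015). The arginine and ornithine transporter Slc7a2 rose after FeSO4 (LFC 0.92, SE 0.30, adjusted p = 0.019), though not with scaling by library size alone (LFC 0.61, adjusted p = 0.0973) or without FeSO4/PBS mouse 2 or NaCl/PBS mouse 1 or 2 (adjusted p of up to 0.129). Arg2, the arginase of other tissues, had 5 to 8 reads in the NaCl/PBS mice and 8 to 24 in the FeSO4/PBS mice (LFC 1.85, SE 0.57, adjusted p = 0.013), a call lost without FeSO4/PBS mouse 2 (adjusted p = 0.0504). Oat, which breaks down ornithine in pericentral cells, was not called after FeSO4 (LFC -0.15, SE 0.29) or DEX (LFC 0.07, SE 0.29). Slc25a2, a close relative of the carrier Slc25a15, had at most 4 reads in a liver and was not tested.

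For export, only Aqp9, a channel for water, glycerol and urea, had enough reads of the 3 genes listed. It fell from 8317 ± 893 to 3347 ± 239 normalized counts after FeSO4 (LFC -1.31, SE 0.13, adjusted p = 1.9e-06) and was not called after DEX (LFC -0.35, adjusted p = 0.091). Of 6 enzymes that release amino acid nitrogen, 3 were higher after FeSO4 and 2 after DEX, and 0 were lower. Sds, serine dehydratase, rose from 4280 ± 1400 to 14574 ± 4384 after FeSO4 (LFC 1.77, SE 0.29, adjusted p = 1.6e-04) and to 10869 ± 267 after DEX (LFC 1.34, SE 0.28, adjusted p = 0.0058). The alanine transaminase Gpt2 rose by 0.74 (SE 0.14, adjusted p = 4.2e-04) after FeSO4 and by 0.73 (SE 0.14, adjusted p = 0.0023) after DEX on the log2 scale. Gldc, of the glycine cleavage system, rose by 0.59 (SE 0.13, adjusted p = 0.0018) after FeSO4, other than with scaling by library size alone (adjusted p = 0.0948).

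**Figure D4:**
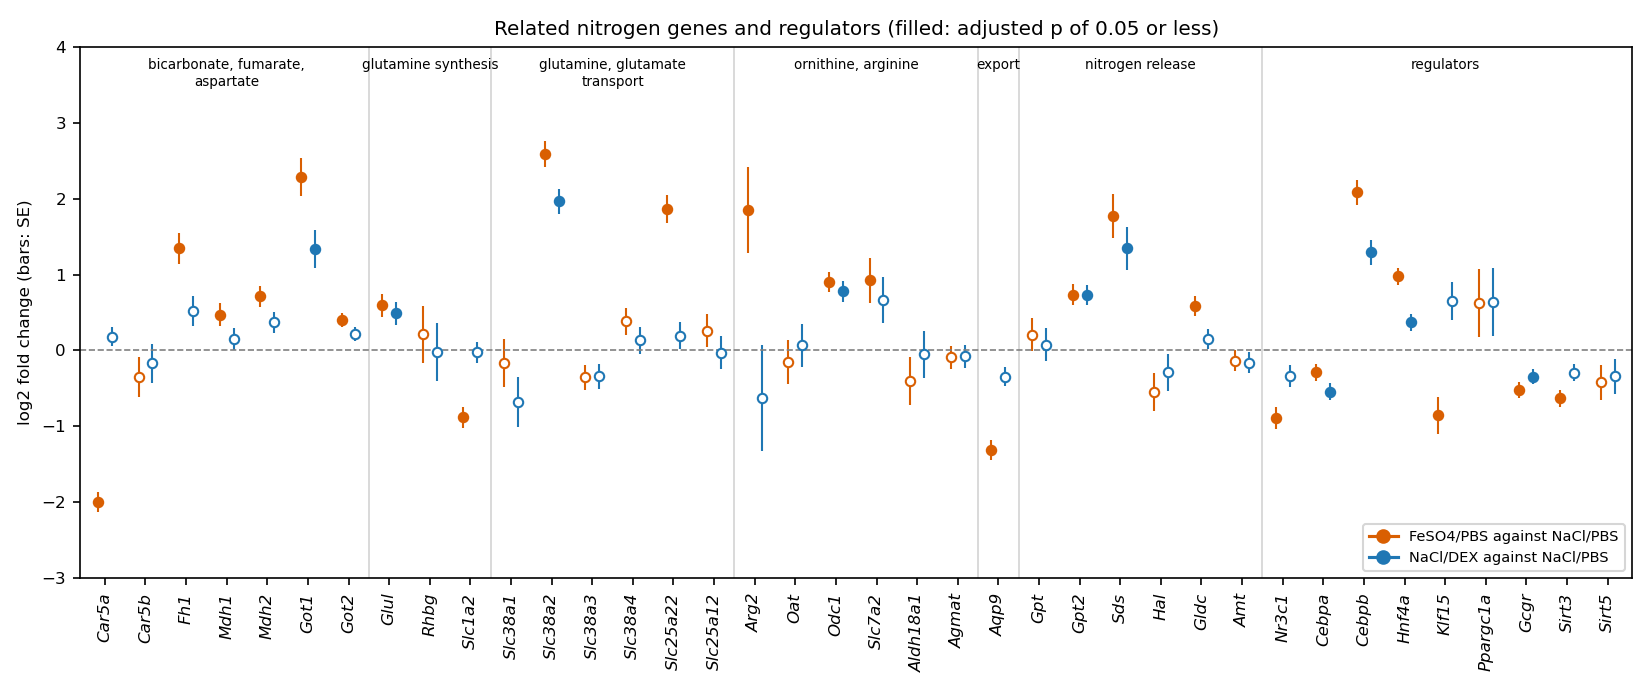
LFC (vertical axis, log2 scale, bars for the SE) of the related genes in FeSO4/PBS mice (orange) and NaCl/DEX mice (blue), each against NaCl/PBS mice, with filled points for an adjusted p of 0.05 or less; Slc25a18 is left out because it had no read in NaCl/PBS mice. Car5a has an LFC of -1.99 after FeSO4, and Slc38a2 and Got1 rise after both treatments.

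Of 9 regulators known to act on urea cycle genes or enzymes, 2 were higher and 5 were lower after FeSO4, and 2 were higher and 2 were lower after DEX. Among all tested genes, 27.2% were higher and 27.3% were lower after FeSO4, and 6.5% and 7.15% after DEX. Cebpb, a C/EBP factor of the stress response, rose from 1128 ± 213 to 4779 ± 164 after FeSO4 (LFC 2.08, SE 0.17, adjusted p = 3.5e-07) and to 2768 ± 74.3 after DEX (LFC 1.29, SE 0.16, adjusted p = 1.2e-04). Its relative Cebpa, a main driver of liver metabolic genes, fell by 0.54 (SE 0.11, adjusted p = 0.0052) after DEX and by 0.29 (SE 0.11, adjusted p = 0.043) after FeSO4 on the log2 scale, and the latter call was lost in many of the other fits, for example without NaCl/PBS mouse 3 (adjusted p = 0.184). Hnf4a, a hepatocyte factor that drives ureagenesis genes, rose from 12161 ± 64.5 to 23971 ± 1903 after FeSO4 (LFC 0.98, SE 0.11, adjusted p = 6.9e-06) and by 0.37 (SE 0.11, adjusted p = 0.038) after DEX, a call lost with scaling by library size alone (LFC 0.22, adjusted p = 0.213), with no filter on low counts (adjusted p = 0.0813) and without NaCl/DEX mouse 1 or 3 or any NaCl/PBS mouse (adjusted p of up to 0.151). Nr3c1, which encodes GR, fell from 1912 ± 185 to 1032 ± 215 after FeSO4 (LFC -0.89, SE 0.15, adjusted p = 1.8e-04). After DEX Nr3c1 was not called, but passed as lower with library size alone (LFC -0.49, adjusted p = 0.0436) and in the fit to these libraries alone (LFC -0.32, adjusted p = 0.0494). Klf15, a GR target that drives amino acid breakdown, fell by 0.86 (SE 0.25, adjusted p = 0.0096) after FeSO4, while after DEX its LFC of 0.65 did not pass (adjusted p = 0.10) but passed in 4 alternatives, among them DESeq2 (adjusted p = 0.0458) and the fit to these libraries alone (adjusted p = 0.0157). The glucagon receptor Gcgr fell after both, by 0.52 (adjusted p = 6.3e-04) and by 0.34 (adjusted p = 0.035). These calls of Gcgr were not examined in the other fits.

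In FeSO4 mice, edgeR called 0 of the 39 tested genes of the 7 lists after DEX, with 2 at an unadjusted p below 0.05, and DESeq2 called 0. The interaction was called for Slc38a2 (-1.50, SE 0.23, adjusted p = 0.0016), Odc1 (-1.0, SE 0.19, adjusted p = 0.0071), Cebpb (-1.10, SE 0.23, adjusted p = 0.011), Got1 (-1.31, SE 0.35, adjusted p = 0.040) and Gpt2 (-0.69, SE 0.19, adjusted p = 0.048), for which the LFC after DEX was lower in FeSO4 than in NaCl mice. For Cebpa (0.66, SE 0.16, adjusted p = 0.026) and Gcgr (0.57, SE 0.14, adjusted p = 0.031), which DEX lowered in NaCl mice, the difference was positive. FeSO4/DEX mice had 24306 ± 1298 normalized counts of Slc38a2 and 1386 ± 106 of Odc1, against 17631 ± 2208 and 1614 ± 119 in FeSO4/PBS mice.

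Genes most like a member were sought over the 12 livers by Pearson's r of log2 CPM among 8959 genes with a mean normalized count of at least 100. Nags, the member with the largest change after FeSO4, was most like Scarf1 (r = 0.97), Dbp (r = 0.96) and Gabpb2 (r = 0.96). Dbp, a clock-controlled transcription factor, fell from 2397 ± 480 normalized counts in NaCl/PBS mice to 75.7 ± 5.74 in FeSO4/PBS mice (LFC -4.98, SE 0.34, adjusted p = 8.9e-08) and to 710 ± 150 in NaCl/DEX mice (LFC -1.76, SE 0.28, adjusted p = 8.0e-04). The scavenger receptor gene Scarf1 fell by 1.03 and 0.56 and Gabpb2 by 0.83 and 0.45 on the log2 scale in the same comparisons, much as Nags did. Slc25a15, the member with the largest change after DEX, was most like Gpat4 (r = 0.97), Lrp6 (r = 0.94) and Foxn3 (r = 0.94). Gpat4, an enzyme of glycerolipid synthesis, rose from 1750 ± 120 to 7997 ± 593 after DEX (LFC 2.19, SE 0.20, adjusted p = 9.2e-06) and had an interaction of -1.97 (SE 0.27, adjusted p = 8.9e-04). For Lrp6 the LFC after DEX was 1.21 (SE 0.16, adjusted p = 1.3e-04) and the interaction -1.11 (SE 0.22, adjusted p = 0.0082). These r describe 4 groups of 3 mice and mostly follow the group means.

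Markers of liver cell types were examined beside these values. Their counts are set beside the shares of all tested genes, 27.2% higher and 27.3% lower after FeSO4. After DEX in NaCl mice these shares were 6.5% and 7.15%. Of 9 hepatocyte markers, 5 were higher and 0 were lower after FeSO4, and their summed normalized counts were 2215730 to 2579952 in NaCl/PBS, 2569804 to 2914397 in NaCl/DEX, 2782071 to 3187669 in FeSO4/PBS and 3181500 to 3224167 in FeSO4/DEX mice. Of 9 periportal markers, which mark the zone where the urea cycle runs, 5 were higher and 1 was lower (Pck1, of gluconeogenesis) after FeSO4, with summed counts of 104943 to 114541 in NaCl/PBS, 143888 to 148104 in NaCl/DEX, 85592 to 102487 in FeSO4/PBS and 74483 to 113338 in FeSO4/DEX mice. These sums largely follow Pck1, with means of 46416, 76235, 8234 and 11504 in this order of groups. The mean log2 level of the 9 markers, relative to the NaCl/PBS mean, was 0.10 to 0.33 in FeSO4/PBS mice and -0.13 to 0.27 in NaCl/PBS mice. After DEX, 1 periportal marker was higher and 0 were lower. Of 10 pericentral markers, 1 was higher and 4 were lower after FeSO4, and 1 was higher and 3 were lower after DEX, with Lgr5, Axin2 and Tbx3 lower after both. Their summed counts were 154937 to 168048, 158959 to 210010, 134040 to 153465 and 140712 to 185800 in the same order of groups. In NaCl/PBS mice Cyp2e1 (mean 105504) was the largest part of these sums, as Alb (mean 1626387) was of the hepatocyte sums. No hepatocyte, periportal or pericentral marker in the table was at 0 in a whole group. None of the 10 genes is in these lists, but Sds, Hal and Gldc among the periportal and Glul, Rhbg, Slc1a2 and Oat among the pericentral markers are also related genes described above.

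Marker RNA of other liver cells was examined as well, where 27.2% of all tested genes were higher and 27.3% were lower after FeSO4. After DEX in NaCl mice, 6.5% of all tested genes were higher and 7.15% were lower. All 7 Kupffer cell markers were lower after FeSO4, and their summed counts were 7608 to 8858 in NaCl/PBS and 6765 to 7956 in NaCl/DEX mice against 3889 to 4581 in FeSO4/PBS and 3226 to 5336 in FeSO4/DEX mice. Of 6 tested neutrophil markers 5 were higher after FeSO4, with summed counts of 116 to 299, 86.6 to 125, 777 to 936 and 593 to 714. Of 6 endothelial markers 1 was higher and 3 were lower, of 6 stellate markers 2 were higher and 1 was lower, of 5 cholangiocyte markers 2 were higher, of 4 tested lymphocyte markers 1 was lower, of 2 tested mesothelial markers 1 was lower, and the 1 tested acinar marker was not called. After DEX in NaCl mice, 1 neutrophil and 1 cholangiocyte marker were lower and 1 endothelial marker was higher and 1 lower, and no other marker of these cells was called. The part of these cells in the changes of the 10 genes was not tested.

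Some of the genes share exon sequence with other genes in the annotation, and which strand was counted is not given in the sources used here. Arg1 overlaps Gm36172 (41 to 112 reads per liver), Nags overlaps Gm11586 (7 to 59), Slc25a15 overlaps 1810012K16Rik (0 to 11) and Gls2 overlaps Spryd4 (241 to 641), all on the other strand. Glud1 overlaps Shld2 on the other strand (278 to 1788 reads) and holds 303 bases in common with the pseudogene Gm3219 on its own strand (1 to 8 reads). The members had 24276 to 57883 (Arg1), 315 to 1560 (Nags), 5022 to 21138 (Slc25a15), 3816 to 8985 (Gls2) and 14870 to 25799 (Glud1) reads.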

How the data were processed

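RNAseq of 12 livers was analysed. The authors made stranded mRNA libraries, sequenced them single-end and, after quality control in FastQC, used STAR 2.7.10b both to map reads to mm39 and to count them per gene. The deposited values are whole, unnormalized counts. Gene names, positions and exon lengths came from GENCODE vM39 (GRCm39), a later release than the authors' own, for 54749 of 55414 genes, and 30401 genes had no count.

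The following was computed with edgeR 4.0.16, limma 3.58.1 and DESeq2 1.42.0 in R 4.3.3, and with matplotlib 3.10.9 and numpy 2.4.6 in Python 3.11.15. After filterByExpr, which kept 13857 genes, and TMM scaling, a quasi-likelihood fit in edgeR gave each group its mean and used the 12 libraries together. The common biological coefficient of variation was 0.169 and log2 CPM used a prior count of 2. The fit was also run on simulated counts with genes changed in NaCl/DEX mice alone. That setting is simpler than these data, and no result here rests on it. Mice of a group differed by a chi-square per gene of 18.3 to 89.5, far over sampling noise, so each was counted once. The largest values were those of FeSO4/PBS mouse 1 against mice 2 and 3 (89.5 and 71.4), while mice 2 and 3 had 24.0. Without FeSO4/PBS mouse 1, 2543 genes were called after DEX in NaCl mice and 1018 in the interaction.

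The 10 genes and all lists were chosen with earlier results of these data known. Besides the 10 genes, Glul, Oat, Arg2, Slc25a2, Nr3c1, Cebpa, Cebpb, Hnf4a and Klf15 were always named, then up to 3 called genes of each related list and comparison with the largest absolute LFC, and the 3 genes most like the 2 members with the largest changes. Rik and Gm genes were left out of that search, and 1 further related gene is not reported here. Alternatives were DESeq2, its size factors in edgeR, library size alone, no filter, a minimum of 10 counts per library, a block for the replicate number, only the libraries compared, each mouse left out, and an LFC beyond 1. The labels do not say that equal replicate numbers share a litter or day. In the main fit, p-values weigh a change against the spread between these mice. That spread was estimated from all 4 groups together and in part shared across genes.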

Additional observations from a re-analysis of the deposited data

Results flagged for a closer look

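In edgeR's test of the interaction over all 13857 genes, the difference between the DEX effects of FeSO4 and NaCl mice was called higher for 2.99% and lower for 3.2% of genes. Among the 10 urea cycle and ammonia handling genes it was called for Slc25a15 alone, with a difference of -1.58 on the log2 scale. The 7 called among the 39 tested related genes and regulators are given because they passed this test. The difference was -1.50 for Slc38a2, -1.31 for Got1, -1.0 for Odc1, -0.69 for Gpt2, -1.10 for Cebpb, 0.66 for Cebpa and 0.57 for Gcgr. Of the genes most like Nags or Slc25a15, which were picked on the same livers so that their number says nothing further, it was 1.66 for Dbp (adjusted p = 0.048), -1.97 for Gpat4 and -1.11 for Lrp6.

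Leaving out each of the 12 mice in turn, Slc25a15, Slc38a2, Odc1 and Cebpb kept this call in all 12 fits and in all 6 other alternatives with a value. Got1 kept it in 5 of the 12 fits, Gpt2 in 3, Cebpa in 4 and Gcgr in 4. Of the 6 other alternatives, Cebpa kept it in all, Got1 and Gpt2 lost it with library size alone (adjusted p = 0.0526 and 0.0711) and in the fit with a replicate block, and Gcgr lost it with no filter on low counts (adjusted p = 0.0889). Each of these genes was called after FeSO4 in mice without DEX, where 27.2% of all tested genes were higher and 27.3% were lower. That call of Cebpa was lost in many other fits, for example without NaCl/PBS mouse 3 (adjusted p = 0.184). The part of the FeSO4 changes in the difference was not tested.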

How the results depend on the processing

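With 3 mice a group, the number of mice limits the precision more than the depth, since the members had 315 reads or more in every liver. The results are those of 1 liver sample per mouse at 1 time point, and only RNA levels were analysed here.

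Scaling by library size alone gave 3 members lower after FeSO4 and 1 higher after DEX, and turned the sign of Cps1 (-0.19), Gls2 (-0.0817) and Glud1 (-0.19) after FeSO4, of Otc (-0.12), Arg1 (-0.0805), Glud1 (-0.11) and Oat (-0.0892) after DEX, of Otc in FeSO4/DEX against NaCl/DEX (-0.13), of Arg1 for DEX after FeSO4 (-0.0262) and of the interaction of Arg1 (0.0543). It moved the share of calls that were higher from 49.9% to 28.2% after FeSO4, from 47.6% to 25.8% after DEX, from 51.7% to 34.2% for FeSO4/DEX against NaCl/DEX and from 48.3% to 63.7% in the interaction. An LFC beyond 1 left 1 member higher after FeSO4, 1 higher and 0 lower after DEX, and 0 higher and 0 lower in FeSO4/DEX against NaCl/DEX, with 3770, 884 and 2836 genes called in all instead of 7553, 1892 and 6005. No filter on low counts gave 3 members higher in FeSO4/DEX against NaCl/DEX, 170 genes called by DEX after FeSO4 and 1459 (against 857) in the interaction, and DESeq2 called 9 genes by DEX after FeSO4. The LFC of Arg1 for DEX after FeSO4 was -0.0094 with DESeq2, -0.0090 with its size factors and -0.0026 with no filter, and that of Ass1 was 0.0010 with at least 10 counts in every library, all near 0 as before.

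Deviations of samples with the same replicate number had r from -0.09 to 0.13 over 18 pairs, against -0.15 to 0.11 over 36 other pairs. No pairing was seen, but these r cannot exclude a shared litter, day or batch. With the replicate block, 1 member was higher after DEX (Slc25a15, with Asl at adjusted p = 0.0723), the calls of Glul (adjusted p = 0.063) and Hnf4a (adjusted p = 0.0648) after DEX, of Cebpa after FeSO4 (adjusted p = 0.0608) and of the interactions of Got1 (adjusted p = 0.0572) and Gpt2 (adjusted p = 0.0836) were lost, and the LFC of Ass1 for DEX after FeSO4 was 0.0339. No other count of members moved by over 1.5 times under the block.

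Without 1 mouse at a time, after DEX 1 to 3 members were higher, 0 or 1 was lower, and 1187 to 2543 genes were called, with the fewest without NaCl/PBS mouse 1 or 3 (1187 and 1192). In FeSO4/DEX against NaCl/DEX 1 to 3 members were higher, 2 without NaCl/DEX mouse 1 and 3 without FeSO4/DEX mouse 1. DEX after FeSO4 gave 0 or 1 gene in all, with 1 without FeSO4/DEX mouse 1, and the interaction 537 to 1018, with the fewest without NaCl/PBS mouse 1 or 3 (537 and 545). For DEX after FeSO4 the LFC ranged from -0.17 to 0.14 for Cps1, from -0.24 to 0.24 for Ass1, from -0.10 to 0.24 for Asl, from -0.16 to 0.15 for Arg1 and from -0.0271 to 0.17 for Slc25a13. After DEX in NaCl mice it ranged from -0.0272 to 0.15 for Otc, from -0.0278 to 0.17 for Arg1, from -0.24 to 0.0815 for Gls2, from -0.0009 to 0.085 for Glud1 and from -0.33 to 0.32 for Oat. After FeSO4 it ranged from -0.12 to 0.0272 for Otc and from -0.28 to 0.0895 for Oat, and for Otc from -0.0485 to 0.13 in FeSO4/DEX against NaCl/DEX. The interaction ranged from -0.0146 to 0.18 for Otc, from -0.25 to 0.0779 for Arg1 and from -0.0282 to 0.16 for Glud1. None of the results that turned sign was called in the values the report gives first, though Otc after FeSO4 was called lower with library size alone (adjusted p = 0.0234), and the cause of the turns was not tested. The interaction was not fitted with only the libraries compared, since it needs all 4 groups. Of the other results for members, 865 kept their side of the threshold and their direction, 19 lost and 10 gained a call.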
